A study of Mus musculus with 18 samples.

Results

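Among 9819 genes with a mean level of at least 5 TPM (transcript abundance corrected for transcript length and scaled to the same total in each sample), 390 were lower in every sample carrying an sgRNA against Ppia than in the matched sgBgal sample. They were chosen from the deposited TPM table by comparing each Ppia sgRNA, sgPpia#3.2 and sgPpia#4.1, with sgBgal of the same cell line and p53 state, which gives 12 comparisons, and by asking for a lower TPM in all 12. Ppia itself was left out, and the whole table holds 25239 genes. The 390 genes are 3.97% of the genes that could qualify. The mirror of the rule, a higher TPM in all 12 comparisons, was met by 58 genes, or 0.591%. Because the sgPpia and sgBgal values chose the genes, every difference between them is given as a description and without a test.

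The samples were 18 bulk RNA-seq libraries from cultured mouse small cell lung cancer cells of the class the study calls Type D, which undergo necrosis once p53 returns. Each of 3 cell lines (4711-1, 4711-18 and 4716-11) was studied with every sgRNA, and p53 was either silenced (Control, vehicle) or switched back on for 72 h (Restored, 4-hydroxytamoxifen), so each of the 6 groups had 1 sample of every line. All lines came from tumors of Rb1 fl/fl, Trp53 XTR/XTR, Rbl2 fl/fl, Rosa26 FlpO-ER mice, started with a Cre adenovirus driven by the CMV promoter. All groups therefore lack Rb1 and Rbl2 and carry a Trp53 gene trap that a tamoxifen-activated FlpO recombinase removes in the Restored samples. The sgBgal control targets a bacterial gene that mouse cells do not have. All sgRNAs were delivered with Cas9 by LentiCRISPRv2, and in the selected cells the target protein was reduced but not absent. Whether they were pools or clones is not given in the sources used here. The replicates are different cell lines, and the same 6 sgBgal samples serve as the reference for both Ppia sgRNAs, so the 12 comparisons are not independent.

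Ppia encodes cyclophilin A, an abundant enzyme that turns the peptide bond before proline between its cis and trans forms and is the main cellular target of cyclosporin A. Cyclophilins assist protein folding, and several family members sit in the spliceosome. Transcription, RNA processing and nuclear transport depend on large multi-subunit machines, among them RNA polymerase II, the Integrator complex that cleaves nascent RNA, and the nuclear pore. None of these roles was measured here. In bulk RNA, fewer cells of a kind and less RNA per cell cannot be told apart.

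Promoter sequence of 4 of the genes is shown because their values in every sample are given below. Depp1, a gene under FOXO control that was named for its induction by progesterone, had the largest difference. Irs2 encodes an adaptor of the insulin receptor, Polr2a the largest subunit of RNA polymerase II, and Ttk a kinase of the spindle checkpoint. Each sequence runs from 250 bases before to 50 bases after the RefSeq start site, 5′ to 3′ on the gene's strand, in build GRCm38.p6. Capitals mark motifs found on either strand, which were the CCAAT box, the GC box GGGCGG, the TATA box TATAAA, the E-box CACGTG, the core TGACGT of cyclic AMP response elements and the ETS core CCGGAA.
Depp1, chr6:116650434-116650733, plus strand: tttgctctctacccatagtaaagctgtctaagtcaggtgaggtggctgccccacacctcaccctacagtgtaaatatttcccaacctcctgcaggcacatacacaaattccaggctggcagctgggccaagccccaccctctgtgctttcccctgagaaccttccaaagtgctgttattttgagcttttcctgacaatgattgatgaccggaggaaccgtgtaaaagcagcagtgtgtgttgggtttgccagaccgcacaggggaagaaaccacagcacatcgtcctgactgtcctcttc
Irs2, chr8:11008880-11009179, minus strand: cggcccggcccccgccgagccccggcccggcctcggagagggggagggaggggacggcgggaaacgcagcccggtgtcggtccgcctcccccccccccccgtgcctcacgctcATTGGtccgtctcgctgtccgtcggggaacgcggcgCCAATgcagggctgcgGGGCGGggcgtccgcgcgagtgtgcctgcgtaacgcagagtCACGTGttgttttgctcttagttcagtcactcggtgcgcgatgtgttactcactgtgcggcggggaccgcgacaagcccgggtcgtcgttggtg
Polr2a, chr11:69758584-69758883, minus strand: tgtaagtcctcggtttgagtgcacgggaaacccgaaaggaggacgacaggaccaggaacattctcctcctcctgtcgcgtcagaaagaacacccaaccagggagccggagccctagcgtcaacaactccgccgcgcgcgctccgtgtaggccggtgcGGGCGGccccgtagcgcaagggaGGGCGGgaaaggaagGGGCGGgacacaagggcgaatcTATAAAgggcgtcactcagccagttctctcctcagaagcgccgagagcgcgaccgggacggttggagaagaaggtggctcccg
Ttk, chr9:83834439-83834738, plus strand: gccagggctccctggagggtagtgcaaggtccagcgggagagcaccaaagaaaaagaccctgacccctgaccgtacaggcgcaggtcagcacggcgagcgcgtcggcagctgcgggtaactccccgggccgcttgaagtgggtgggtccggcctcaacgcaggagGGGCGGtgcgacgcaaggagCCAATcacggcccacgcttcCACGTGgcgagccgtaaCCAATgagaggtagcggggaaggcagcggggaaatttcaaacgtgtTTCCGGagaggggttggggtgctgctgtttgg
None of the motifs was in the Depp1 window. The Irs2 window held 2 CCAAT boxes, 1 GC box and 1 E-box, the Polr2a window 3 GC boxes and 1 TATA box, and the Ttk window 2 CCAAT boxes and 1 each of the GC box, the E-box and the ETS core.

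A promoter was listed for 322 of the 390 genes and for 7870 of the 9819. The first listed promoter held CCAAT in 40.1% of the 322 and 39.0% of the 7870, GGGCGG in 72.7% and 68.7%, and TATAAA in 7.45% and 6.63%. CACGTG was in 13.7% against 10.9%, TGACGT in 11.8% against 12.9%, and CCGGAA in 30.4% against 31.9%. The motif shares of the 322 were thus close to those of all genes. Of the genes lower in all 12 comparisons also after the rescaling described below, 90 had a promoter, and there CCGGAA was in 16.7% and TGACGT in 7.78%, while CCAAT was in 37.8%, GGGCGG in 66.7%, TATAAA in 10% and CACGTG in 11.1%. These differences were not tested, and the presence of these letters says nothing on binding.

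The targeted transcript was checked first. Ppia had 2704, 2575 and 2849 TPM in the sgBgal Control samples of 4711-1, 4711-18 and 4716-11, 1073, 658 and 1207 TPM with sgPpia#3.2, and 1713, 1684 and 1952 TPM with sgPpia#4.1. After restoration the values were 2060, 1551 and 2730 TPM with sgBgal, 873, 769 and 1233 with sgPpia#3.2, and 1678, 1191 and 1765 with sgPpia#4.1. In each line and state the order was the same, with sgBgal highest and sgPpia#3.2 lowest. The mean log2(TPM + 1) difference from sgBgal was -1.32 ± 0.33 (SD, n = 6 comparisons) with sgPpia#3.2 and -0.52 ± 0.15 with sgPpia#4.1.

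Differences in most of the 390 genes were small. Their median mean log2(TPM + 1) difference over the 12 comparisons was -0.25, which is 16% lower, where the median of all 9819 genes was -0.07. Single genes ranged from -1.25 to -0.08. Of the 390, 197 were at -0.25 or below, 11 at -0.5 or below and 1, Depp1, at -1 or below. A drop of under 0.05 in at least 1 of the 12 comparisons was seen in 262 of the genes. Asking for a TPM at least 10% below sgBgal in all 12 left 13 genes, and no gene was at least 10% higher in all 12. These 13 were Depp1, Slfn9, Ddit4l, Fancd2, Clca3b, Tbc1d2b, Fam53b, Plekha7, Anapc1, Sfmbt1, Lzts3, Mcm8 and Ppip5k1. Mean levels of the 390 genes ran from 5.1 to 460 TPM with a median of 27.6, close to the median of 31.8 TPM of all 9819.

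**Figure D1:**
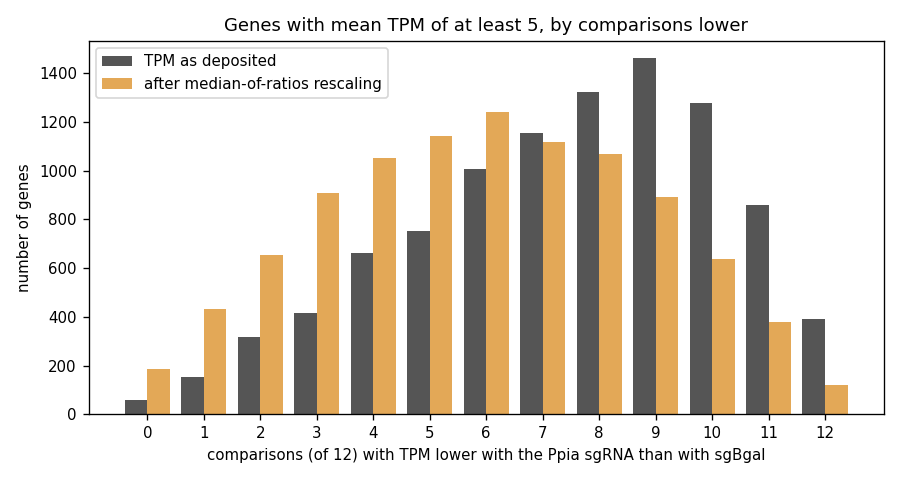
Number of the 9819 genes with mean TPM of at least 5 (vertical axis) by how many of the 12 comparisons had a lower TPM with the Ppia sgRNA than with sgBgal (horizontal axis), for the deposited TPM (dark grey) and after median-of-ratios rescaling (orange). The bar at 12 falls from 390 to 119 genes with rescaling, while the bar at 0 grows from 58 to 184.

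Membership in all 12 comparisons depended on the scaling of the samples. TPM values sum to a fixed total in each sample, so a few abundant transcripts can move all others. Depending on the comparison, 41.6% to 73.5% of the 9819 genes were lower with the Ppia sgRNA than with sgBgal, and the median gene was lower in 8 of the 12. Samples were therefore also divided by median-of-ratios factors, taken over 13903 genes above 0 in all samples, after which the median gene was lower in 6 of the 12. The factor of the Ppia sgRNA sample was below that of its sgBgal sample in 11 of 12 comparisons. On the rescaled values 119 genes (1.21%) were lower in all 12 and 184 (1.87%) were higher in all 12, so the excess of lower over higher genes turned into the opposite. Of the 390 genes, 111 (28.5%) were lower in all 12 under both scalings, and these 111 were 93.3% of the 119. Of the others, 249 were still lower in 9 to 11 comparisons and 30 in fewer than 9, and the median mean difference of the 390 was -0.17 after rescaling. In each single comparison 302 to 390 of them stayed lower. For the 111 the median mean difference was -0.31 as deposited and -0.23 after rescaling.

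**Figure D2:**
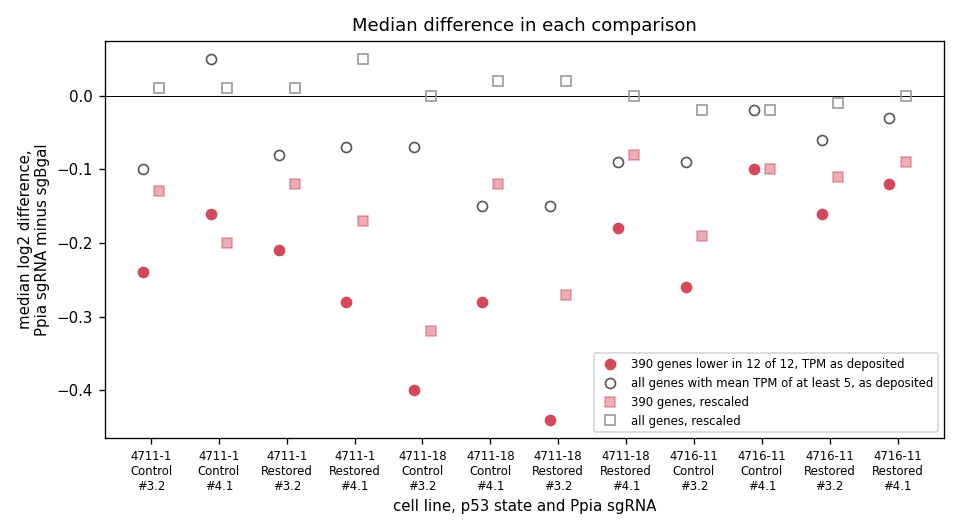
Median log2(TPM + 1) difference, Ppia sgRNA minus sgBgal (vertical axis), in each of the 12 comparisons of line, p53 state and sgRNA (horizontal axis), for the 390 genes (filled) and all 9819 genes (open), as deposited (circles) and after rescaling (squares). The median of the 390 genes runs from -0.44 in 4711-18 Restored with sgPpia#3.2 to -0.10 in 4716-11 Control with sgPpia#4.1, and the rescaled medians of all genes lie between -0.02 and 0.05.

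The differences were not spread evenly over the samples. In 144 of the 390 genes the largest drop was in 4711-18 Control with sgPpia#3.2, and in a further 127 it was in 4711-18 Restored with sgPpia#3.2. The next most frequent was 4711-1 Restored with sgPpia#4.1, with 38 genes. The 4 comparisons of line 4716-11 together held the largest drop of few genes, between 1 and 10 each. The median difference was -0.44 in 4711-18 with sgPpia#3.2, -0.24 in that line with sgPpia#4.1, -0.23 in 4711-1 with either sgRNA, and -0.21 and -0.12 in 4716-11 with sgPpia#3.2 and sgPpia#4.1. By p53 state, the medians with sgPpia#3.2 were -0.32 in Control and -0.28 in Restored, and with sgPpia#4.1 they were -0.19 and -0.21.

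Sets were also chosen anew in the 8 comparisons of a pair of lines, and the same measure was read in the 4 comparisons of the line left out. Chosen without 4711-1, 1011 genes were lower in all 8, and 386 of them (38.2%) were lower in all 4 comparisons of 4711-1, where 21.0% of all qualifying genes were. The shares were 54.1% against 29.5% for 714 genes read in 4711-18 and 40.1% against 26.5% for 980 genes read in 4716-11. After rescaling they were 32.2% against 14.1%, 33.1% against 14.4% and 28.2% against 17.6% in the same order. For the mirror, genes higher in 8 comparisons, the shares were 35.4% against 10.4%, 31.9% against 6.44% and 29.1% against 7.92%, and after rescaling 43.9% against 17.3%, 44.9% against 16.4% and 31.6% against 13.7%. In all 3 lines, then, the share of genes chosen elsewhere that kept their direction was above the share of genes at large, both for lower and for higher genes. A gene that passed both steps was lower or higher in all 12 comparisons. Apart from the filter on mean TPM, these were as deposited the 390 and 58 genes again. The shares are a description and give the 390 genes no separate support. As both sgRNAs share the sgBgal sample of a line and state, a high or low value of that sample enters 2 of the 4 comparisons.

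Depp1 had the largest mean difference. In Control cells it had 16.2, 21.6 and 2.10 TPM with sgBgal in 4711-1, 4711-18 and 4716-11, 1.78, 3.70 and 0.82 TPM with sgPpia#3.2, and 3.99, 12.1 and 1.02 TPM with sgPpia#4.1. In Restored cells the values in the same order were 4.71, 11.4 and 4.75 TPM with sgBgal, 1.67, 2.30 and 2.84 with sgPpia#3.2, and 0.87, 8.54 and 2.86 with sgPpia#4.1. Line 4711-18 was highest with sgBgal in both states, and across lines the sgBgal range overlapped that of both Ppia sgRNAs in Control and that of sgPpia#4.1 in Restored cells, while the sgPpia#3.2 samples lay below it in Restored cells. The mean difference was -1.54 ± 0.84 (SD, n = 6) with sgPpia#3.2 and -0.96 ± 0.59 with sgPpia#4.1 on the log2(TPM + 1) scale, which understates changes at such low levels.

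Slc26a2, a sulfate transporter, followed at -0.82. It had 73.1, 56.7 and 34.8 TPM in sgBgal Control, 29.5, 20.1 and 19.3 with sgPpia#3.2, and 56.0, 38.1 and 29.7 with sgPpia#4.1. Restored cells had 50.1, 57.6 and 27.8 TPM with sgBgal, 21.6, 22.1 and 18.2 with sgPpia#3.2, and 16.9, 42.6 and 25.8 with sgPpia#4.1. Within each state the sgPpia#3.2 samples lay below all sgBgal samples, while the sgPpia#4.1 samples overlapped them.

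Csrnp1, which encodes a nuclear protein induced by AXIN, had a mean difference of -0.81 that came mostly from a few samples. Its Control values were 51.4, 15.5 and 23.2 TPM with sgBgal, 32.5, 12.1 and 19.6 with sgPpia#3.2, and 5.83, 12.2 and 19.6 with sgPpia#4.1. Its Restored values were 45.6, 54.0 and 37.1 TPM with sgBgal, 37.6, 16.3 and 31.7 with sgPpia#3.2, and 8.25, 49.6 and 27.7 with sgPpia#4.1. The lowest samples were 4711-1 with sgPpia#4.1 in both states, and in 4716-11 the differences were small. Ppp1r10, a nuclear targeting subunit of a protein phosphatase, had the same unevenness, with a mean of -0.58 and differences between -2.04 and -0.04.

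Irs2 had 51.5, 39.0 and 90.7 TPM in sgBgal Control, 30.9, 22.1 and 78.9 with sgPpia#3.2, and 18.6, 26.3 and 84.6 with sgPpia#4.1. After restoration it had 81.4, 86.8 and 190 TPM with sgBgal, 68.4, 48.7 and 171 with sgPpia#3.2, and 31.6, 79.3 and 162 with sgPpia#4.1. Line 4716-11 had the highest level in each group, and its differences from sgBgal were small. The mean difference of Irs2 was -0.56, and that of Irs1, the other adaptor of this family in the table, -0.33. Pik3r3, a regulatory subunit of the lipid kinase that these adaptors recruit, had -0.42.

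**Figure D3:**
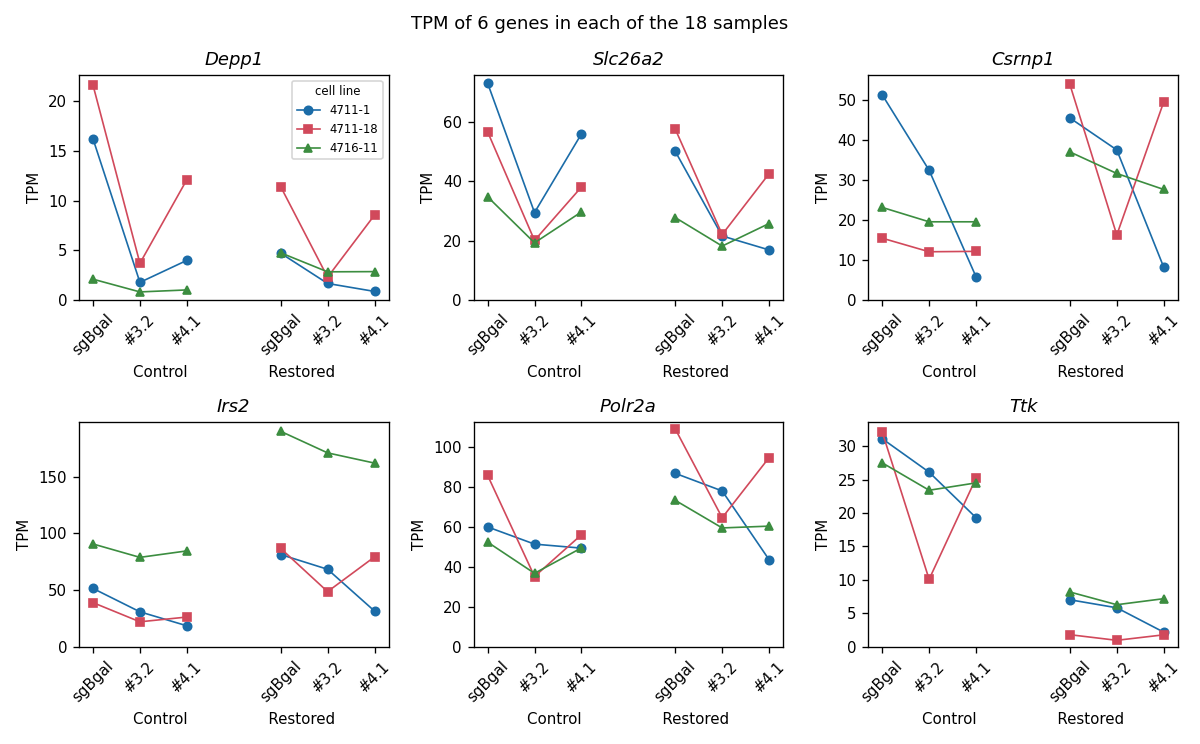
TPM (vertical axes, starting at 0) of 6 genes in each of the 18 samples, by sgRNA (sgBgal, sgPpia#3.2 as #3.2, sgPpia#4.1 as #4.1) and p53 state, with a colour and symbol for each cell line and lines joining the sgRNAs of 1 line and state. In each panel both Ppia points lie below the sgBgal point, and for Csrnp1, Irs2, Polr2a and Ttk most of the steep drops are in 4711-18 with #3.2 and 4711-1 with #4.1.

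The remaining genes with the largest mean differences had mixed roles. Dusp4, a phosphatase that switches off MAP kinases, had -0.58, and Gclc, the catalytic subunit of the enzyme that starts glutathione synthesis, -0.53. Epas1, a hypoxia-inducible transcription factor, had -0.54, Slfn9 of the Schlafen family -0.55, and Brd2, a bromodomain reader of acetylated histones, -0.53. Pom121, which anchors the nuclear pore in the membrane, had -0.51 and Ttk -0.48. Of the 12 genes with the largest mean difference, 8 were lower in all 12 comparisons under both scalings, and Ppp1r10, Epas1, Brd2 and Ttk were lower in 11 after rescaling.

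Families of the transcription, RNA-processing and nuclear transport machines were put together after the genes had been seen, so their counts carry no weight as evidence. Of 35 genes of RNA polymerase II and its elongation factors, 6 were among the 390 (Polr2a, Polr2b, Ctr9, Supt5, Ccnk and Hexim1). Polr2a had 60.0, 85.8 and 52.4 TPM in sgBgal Control, 51.4, 35.2 and 36.8 with sgPpia#3.2, and 49.4, 56.1 and 49.5 with sgPpia#4.1. With p53 restored it had 86.8, 109 and 73.3 TPM with sgBgal, 78.0, 64.6 and 59.5 with sgPpia#3.2, and 43.6, 94.7 and 60.4 with sgPpia#4.1. The mean difference of Polr2a was -0.47, or -0.38 after rescaling, with all 12 comparisons lower either way. Of 14 Integrator subunits 5 were included (Ints1, Ints2, Ints3, Ints6 and Ints13), with Ints6 at -0.38 and Ints2 at -0.31.

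Among 39 coactivators and chromatin readers, 14 were lower in all 12. Ep300 and Crebbp, the paired histone acetyltransferases, had mean differences of -0.45 and -0.40, and both were lower in all 12 after rescaling too. Crebbp went from 10.8, 12.7 and 8.62 TPM in sgBgal Control to 7.80, 6.02 and 7.20 with sgPpia#3.2 and to 8.80, 8.16 and 7.85 with sgPpia#4.1. In Control cells the Crebbp levels of sgPpia#3.2 lay below all those of sgBgal, and 1 of the 3 sgPpia#4.1 levels lay above the lowest sgBgal level. Trim28, Ezh2, Chd1, Baz1b and Kat7, which shape chromatin in different ways, were also in the set.

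Nuclear transport contributed 9 of 27 nucleoporins and 7 of 21 importins and exportins. The nucleoporins were Pom121, Ndc1, Ahctf1, Nup50, Nup98, Nup155, Nup160, Nup188 and Nup205, and after rescaling 7 of the 27 were lower in all 12. Ndc1, a membrane anchor of the pore like Pom121, had -0.41 and Nup160, of its outer ring, -0.31. The transport receptors were Cse1l, Kpna2, Ipo4, Ipo5, Tnpo3, Xpo5 and Xpo6, with -0.32 for both Cse1l and Kpna2. Of 46 RNA helicases 7 were included, Dhx9 at -0.33 and Ddx5 at -0.32 being the largest. Condensin, which compacts mitotic chromosomes, gave 3 of 8 (Ncapg2, Ncapd3 and Ncapg). Most of these families lost members on the rescaled values, where the genes lower in all 12 were 1 importin or exportin, 1 Integrator subunit, 2 genes of RNA polymerase II and elongation, 5 coactivators and chromatin readers, 3 RNA helicases and 1 condensin subunit.

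Among the lists set up with the design, which were chosen with earlier results of these data known, DNA replication and mitosis had the largest shares. The values that chose the 390 genes also gave these shares, so they are a description. Of 43 replication genes 7 (16.3%) were among the 390, namely Cdc6, Mcm3, Mcm10, Pola2, Rfc1, Rpa1 and Rrm1, against 3.97% of all genes. Cdc6, which loads the replicative helicase, had -0.44, and Mcm10, which helps to activate it, -0.47. The median mean difference over the 43 was -0.17 against -0.07 for all genes, and after rescaling -0.08 against 0.01, with none of the 43 lower in all 12. Of 42 mitosis genes 6 (14.3%) were included (Anln, Bub1b, Cenpe, Ncapg, Tpx2 and Ttk), and the median over the 42 was -0.31, or -0.24 after rescaling. None of these 42 was lower in all 12 on the rescaled values.

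Ttk had 31.1, 32.1 and 27.5 TPM in sgBgal Control, 26.1, 10.1 and 23.4 with sgPpia#3.2, and 19.3, 25.2 and 24.5 with sgPpia#4.1. In Restored cells it had 7.04, 1.82 and 8.20 TPM with sgBgal, 5.84, 0.98 and 6.30 with sgPpia#3.2, and 2.20, 1.80 and 7.20 with sgPpia#4.1. In 4711-18 Restored the sgPpia#4.1 value was only just below that of sgBgal.

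Chaperone genes gave 4 of 35 (11.4%), namely Hspd1, Hsph1, Hsf1 and Hsf2, and none of the 35 after rescaling. Hspd1, the chaperonin of the mitochondrial matrix, had the highest mean level of all 390, 460 TPM. It had 499, 813 and 619 TPM in sgBgal Control, 473, 453 and 469 with sgPpia#3.2, and 444, 776 and 557 with sgPpia#4.1. Its mean difference was -0.26, and it was lower in 9 of 12 after rescaling. The other most abundant genes were Eif4g1 and Eif3b, translation initiation factors, at 398 and 340 TPM, and the RNA-binding splicing regulators Hnrnpm and Ptbp1 at 369 and 354 TPM, with mean differences between -0.26 and -0.16.

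Splicing factors gave 5 of 65 (7.69%), with Hnrnpll at -0.25 and Prpf8, the core protein of the spliceosome, at -0.21. Solute carriers gave 9 of 157 (5.73%), after Slc26a2 the iron transporter Slc11a2 at -0.41 and the phosphate transporter Slc20a1 at -0.33. Glutathione and antioxidant genes under NRF2 gave 2 of 32 (Gclc and Srxn1, the latter at -0.42), proteasome genes 2 of 42 (Psmd5 and Psmd6) and genes of the ER stress response 2 of 40 (Edem1 and Dnajc3). The other lists with members gave 3 of 114 for regulators of small GTPases, with Tbc1d2b at -0.43, 2 of 177 zinc finger factors, and 1 each from oxidative phosphorylation (Sdha), ribosome biogenesis (Wdr43), epithelial genes (Tjp1), matrix genes (Lamc1) and immediate early genes (Dusp4). After rescaling, 2 solute carriers were lower in all 12, but 0 splicing factors and 0 proteasome genes. The NRF2, ER stress, small GTPase, zinc finger, matrix and immediate early lists had 1 each, and the others named here 0.

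Of the 29 lists, 13 had no gene among the 390. These included cyclophilins (0 of 15), cytosolic ribosomal proteins (0 of 78), mitochondrial ribosomal proteins (0 of 78), glycolysis (0 of 25), sterol and fatty acid synthesis (0 of 34), actin cytoskeleton (0 of 46) and lysosome and autophagy (0 of 48). In all, 289 of the 390 genes belonged to none of the lists or families. The study's 6 modules were drawn from genes responding to p53 restoration in these same lines and in lines of the class called Type V. Module 3 had 20 of 200 genes among the 390 (10%), Module 2 had 4 of 51, Module 6 had 4 of 56, Module 1 had 5 of 199, Module 5 had 3 of 88 and Module 4 had 1 of 68. The Type D signature gave 4 of 103 (Slc26a2, Dusp4, Golm1 and Gata6), and the Type V signature 0 of 20. Of all qualifying genes 3.97% were among the 390. On rescaled values the genes lower in all 12 were 7 in Module 3, 2 in Module 6, 1 in Module 1 and 0 in Modules 2, 4 and 5. The Type D signature then had 2 and the Type V signature 0.

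Of the 58 genes higher in all 12, cytosolic ribosomal proteins made up 11 (Rpl10, Rpl13a and Rps16 among them). The largest mean rises were those of Trappc6a at 0.46, S100a3 at 0.43 and Rras at 0.42. After rescaling, 54 of the 58 were still higher in all 12.

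Transcript length separated the sets, as measured in the GENCODE M21 annotation of GRCm38. The median exonic length was 6335 bases for 389 of the 390 genes with an entry (quartiles 4740 and 8721), 4413 bases for 9763 of the 9819 genes (2762 and 6778), and 2053 bases for the 58 mirror genes (1347 and 3024). For the 111 genes lower under both scalings it was 7067 bases. Genes lower in all 12 were 0.563% of the shortest of 5 equal classes of length and 1.74%, 3.94%, 6.51% and 7.17% of the following classes, while genes higher in all 12 went from 1.89% of the shortest to 0.0% of the longest. After rescaling, the shares were 0.102% in the shortest and 2.66% in the longest class for lower genes, and 5.48% and 0.154% for higher genes. The median rescaled difference of the longest class lay below that of the shortest in 11 of 12 comparisons, by up to 0.43, the exception being 4711-1 Control with sgPpia#4.1. The gap was close to nil in 4716-11 with sgPpia#4.1, where the shortest and longest classes had 0.01 and -0.0 in Control and 0.01 and -0.02 in Restored cells. GC content of the longest transcript also differed, with medians of 48.5% for the 390, 49.8% for all and 54.8% for the mirror genes. The GC quartiles were 44.8% and 52.4% for the 390, 44.9% and 54.6% for all, and 51.3% and 59.5% for the mirror genes.

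**Figure D4:**
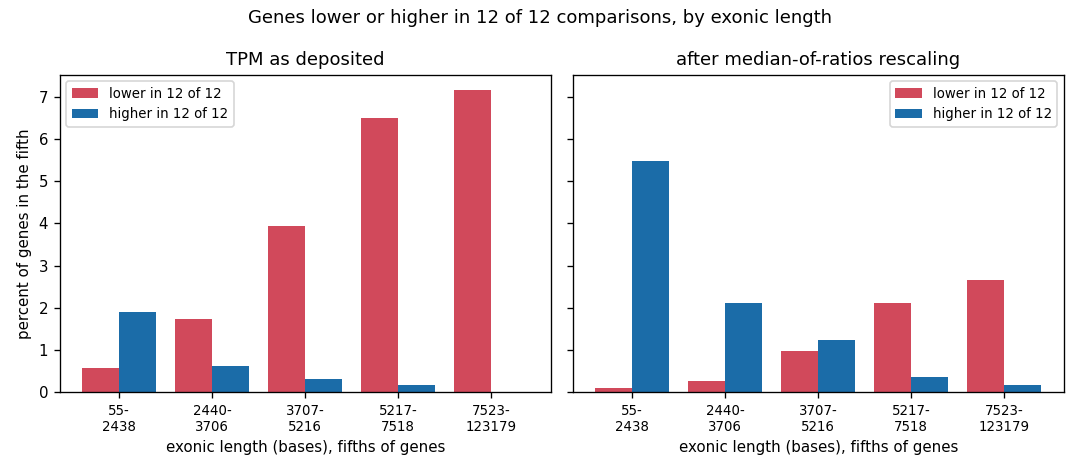
Percent of genes in each of 5 equal classes of exonic length (horizontal axis, bases) that were lower (red) or higher (blue) in all 12 comparisons, for the deposited TPM (left) and after rescaling (right). The share of lower genes climbs from 0.563% to 7.17% as deposited and from 0.102% to 2.66% after rescaling, and the share of higher genes drops from 1.89% to 0.0% and from 5.48% to 0.154%.

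Other quantities moved with the sgRNA as well. The 85 cytosolic ribosomal protein genes took 13.2% to 14.8% of all TPM in sgBgal Control, 15.5% to 16.4% with sgPpia#3.2 and 14.2% to 16.0% with sgPpia#4.1, and in Restored cells 8.81% to 11.3%, 11.0% to 12.4% and 10.1% to 11.7%. Their share was above that of the matched sgBgal sample in 6 of 6 comparisons with sgPpia#3.2 and 5 of 6 with sgPpia#4.1. Relative sequencing depth, read from the spacing of low TPM values, ran from 1.0 to 1.78 times the shallowest sample, and the Ppia sgRNA sample was deeper in 4 of 6 comparisons with sgPpia#3.2 and 3 of 6 with sgPpia#4.1. The part of transcript length, GC content, ribosomal protein share and depth in the lower TPM of the 390 genes was not tested.

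The label of the cells was set against marker genes. Neuroendocrine markers were partly missing, with Calca and Chga under 1 TPM in all samples, while Ncam1 had 6.9 to 29.7 TPM. Of the epithelial markers, Krt8 had 2150 to 8340 TPM, Krt18 2270 to 8540 TPM and Cdh1 264 to 924 TPM, but Epcam only 0.0 to 6.25 TPM. Leukocyte and stromal markers were low. Of 6 leukocyte markers 5 stayed under 1 TPM, and of 7 stromal markers 6 did. The exception Cd68, a lysosomal protein not limited to leukocytes, brought the summed leukocyte list to between 2.34 and 7.19 TPM in Control and between 21.7 and 39.9 TPM in Restored samples, and the ranges of sgBgal and the Ppia sgRNAs overlapped in Restored cells.

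Whether the 390 genes responded to p53 restoration was tested with a contrast the rule did not use, Restored minus Control averaged over the 3 sgRNAs, although the samples are the same and the filter on mean TPM took in both states. At a fold change of 1 or more on the log2 scale and a Benjamini-Hochberg adjusted p under 0.05, limma called 21 of the 390 higher and 15 lower, that is 5.38% and 3.85%. Over all 12828 genes tested, 6.37% were called higher and 2.56% lower, and over the 9819 genes with mean TPM of at least 5, 6.56% and 2.71%. The shares among the 390 were thus near the background. Some called genes passed the filter of 5 TPM through the state in which they were high. Ddit4l, Mybl1, Fam53b and Sfmbt1 had mean levels of 1.29, 4.46, 2.42 and 2.16 TPM in Control cells, and Fancd2 and Ttk had 2.78 and 4.60 TPM in Restored cells, so their passing the filter favoured a difference. The deposited TPM put the median of all tested genes at 0.17 (log2), and 0.13 for the 390. On rescaled values, with that shift removed, limma called 15 of the 390 higher and 19 lower, where the background was 4.56% and 3.7% over all tested genes and 4.65% and 3.92% over the 9819.

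The genes called lower after restoration included 6 of the mitosis list. Bub1b of the spindle checkpoint fell by 2.67 ± 0.26 (SE, limma adjusted p = 2.48e-06), Ttk by 2.32 ± 0.32 and Anln, an actin-binding protein of the cleavage furrow, by 2.15 ± 0.28 (adjusted p = 3.28e-05). Prr11 fell by 2.13, Racgap1, which organizes the central spindle, by 2.01 and the importin Kpna2 by 1.64. Over the whole mitosis list, 40 of 42 genes were called lower. Of the 20 genes shared with Module 3, 13 were called lower, but that module was built by the study around such a response and is not independent evidence of it. Of the 7 replication genes only Mcm10 was called, at -1.0 ± 0.21 (limma adjusted p = 0.00178), just at the fold threshold.

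Among the genes called higher, Ddit4l, an inhibitor of mTOR signaling, had the largest fold change. It had 2.23, 1.47 and 1.60 TPM in sgBgal Control, 1.28, 0.96 and 1.33 with sgPpia#3.2, and 0.87, 1.00 and 0.84 with sgPpia#4.1. In Restored cells it had 61.8, 39.3 and 82.0 TPM with sgBgal, 51.3, 25.6 and 60.7 with sgPpia#3.2, and 33.4, 30.9 and 54.1 with sgPpia#4.1. All Restored samples lay far above all Control samples, and the rise was 4.38 ± 0.18 (log2, SE). Mybl1, a MYB family transcription factor, rose by 2.83 ± 0.10. Both met the filter through their Restored levels, so no p-value is given for them. Pik3r3 rose by 2.16 ± 0.14 (adjusted p = 3.84e-08 in limma).

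Apaf1, which assembles the apoptosome, and Ddias, a suppressor of DNA damage-induced apoptosis, each rose by 2.08. Plxna1, a semaphorin receptor, rose by 1.91, Gtf3c1, a subunit of a transcription factor of RNA polymerase III, by 1.72 and Gclc by 1.60. Gclc had 132, 167 and 91.4 TPM in sgBgal Control, 65.8, 71.5 and 80.4 with sgPpia#3.2, and 105, 137 and 89.2 with sgPpia#4.1. In Restored cells Gclc had 317, 481 and 403 TPM with sgBgal, 171, 346 and 366 with sgPpia#3.2, and 144, 379 and 310 with sgPpia#4.1. Its level was thus higher in Restored than in Control in each line and with each sgRNA, and lower with each Ppia sgRNA than with sgBgal. Of the p53 target list, 30 of 40 genes tested were called higher, and the 390 held 2 of its members, Apaf1 and Tigar. Tigar, which lowers glycolytic flux, had a log2 fold change of 0.34, below the fold threshold.

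Irs2 had a fold change of 1.04 ± 0.40 that missed the threshold (limma adjusted p = 0.0514), and with the cell line as a block it passed (adjusted p = 0.000126 in limma). Depp1, Slc26a2, Csrnp1 and Polr2a were not called, with fold changes of -0.22 ± 0.45, -0.32 ± 0.21, 0.71 ± 0.35 and 0.48 ± 0.15.

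**Figure D5:**
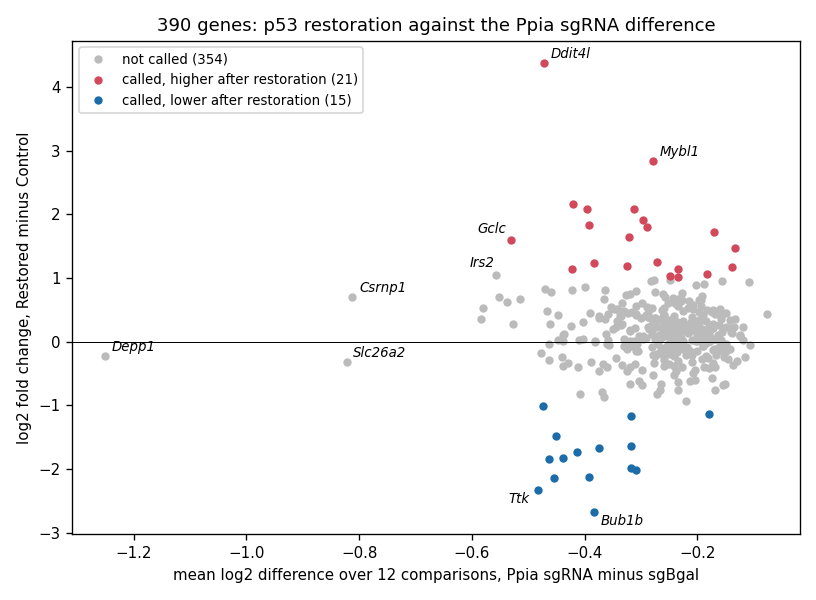
Log2 fold change with p53 restoration, averaged over the sgRNAs (vertical axis), against the mean log2(TPM + 1) difference between Ppia sgRNA and sgBgal over the 12 comparisons (horizontal axis) for the 390 genes. Points in red (21) and blue (15) were called higher and lower after restoration, from Ddit4l at 4.38 to Bub1b at -2.67, and 354 genes in grey were not called.

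The sgRNAs were also compared with each other, as sgPpia#3.2 minus sgPpia#4.1 averaged over both p53 states. The values of both sgRNAs had chosen the 390 genes, so the counts among them are a description and support nothing. limma called none of the 390 genes and none of the 12828 tested (0.0% in either direction) at an adjusted p under 0.05. At an unadjusted p under 0.05, 3 of the 390 were lower with sgPpia#3.2 and 0 higher, where the counts over all tested genes were 80 and 38. The 3 were Slc26a2 at -0.58 ± 0.26, Hsph1, a co-chaperone of HSP70, at -0.34 ± 0.13 and Tigar at -0.22 ± 0.08, each with an adjusted p of 1.0 in limma. These unadjusted counts came from the fit without the cell line. With the line as a block more of the 390 passed, as given in the last section. Of the 390 genes, 336 (86.2%) were lower with sgPpia#3.2 than with sgPpia#4.1, against 62.4% of the 9819, and the median difference was -0.10 against -0.04. Rescaling changed these shares to 77.4% and 52.8%. Ppia itself differed by -0.80 ± 0.18 between the sgRNAs, which passed the threshold only with the cell line as a block on unscaled values (limma adjusted p = 0.0422, and 1.0 without the block).

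At the edge of the rule, small differences decided membership. Urb1 and Alg13, with mean levels of 5.096 and 5.114 TPM, were the lowest genes included, and Zfp668 and Wdr76, at 4.894 and 4.882 TPM, were also lower in all 12 but fell short of 5 TPM. In all, 62 genes below 5 TPM were lower in all 12. Hat1 and Prrc2a were included although in 1 comparison each their values, 144.8 and 141.3 TPM, were equal to sgBgal at the digits shown. Aqr, with 42.53 against 42.52 TPM, and Xpo7, with 11.83 TPM in both, were left out by differences of the same order in the opposite direction. A further 858 genes were lower in 11 of 12 comparisons.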

How the data were processed

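RNA was extracted from 18 samples of cultured cells, and libraries were made with the NEBNext Ultra II kit by a sequencing company. The authors deposited 1 table of TPM values for 25239 genes. Per the submitters' processing notes, bcl2fastq 2.17 and HISAT2 were used with builds mm10 and GRCm39, and which build each step used is not given in the sources used here. Read counts and total depth were not analysed here, so no counting interval is given. Samples were grouped by the sgRNA and treatment in their labels.

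The 390 genes, the gene lists and the motifs were chosen with earlier results of these data known, and the 8 families of transcription, transport and related genes were added after the members had been seen. Tests used limma 3.58.1 in R 4.3.3 on log2(TPM + 1) of the 12828 genes that reached 1 TPM in 3 or more samples, with 1 mean for each of the 6 groups and Benjamini-Hochberg adjustment. Tested on simulated data with 200 genes changed by 2 on the log2 scale, the p53 contrast recovered 94.5% of them. Median-of-ratios factors were computed over genes above 0 in all samples. The lines pair the samples, since samples of a line deviated from their group means together (correlation of at least 0.58 in all 45 pairs, and on average -0.36 between lines). The main fit did not use this pairing, so a gene not called in it could pass with the line as a block, as Irs2 did.

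Genes named were the 12 with the largest mean difference, the 5 most abundant, up to 5 called in each direction with restoration, up to 4 called between the sgRNAs, those nearest the limits of the rule, up to 3 of each list, Ppia and 3 mirror genes. Genes named outside this rule, such as other members of a list or family and the 13 at least 10% lower, were chosen after their values were seen. Relative depth came from the most frequent ratio of low TPM values (genes under 0.6 TPM) between samples. Alternatives were a pseudocount of 0.1, rescaling, other filters, the line as a block, eBayes with trend and robust estimates, and leaving out each line.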

Additional observations from a re-analysis of the deposited data

Results flagged for a closer look

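For 8 of the genes named, the 3 sgRNAs of a cell line all moved one way with p53 restoration while all 3 of another line moved the opposite way, and the difference between lines was not tested. Values are mean log2(TPM + 1) differences, Restored minus Control, over the 3 sgRNAs of a line. Depp1 had 0.96 in 4716-11 against -1.02 in 4711-1 and -0.61 in 4711-18. Slc26a2 had 0.10 in 4711-18 against -0.88 in 4711-1 and -0.20 in 4716-11. Cdc6 had 0.10 in 4711-1 and 0.64 in 4716-11 against -0.70 in 4711-18. Zfp367, a zinc finger factor, had 0.39 in 4711-1 and 0.37 in 4716-11 against -0.37 in 4711-18. Ints2 had 0.05 in 4711-18 against -0.25 in 4711-1 and -0.26 in 4716-11. Ncapd3 had 0.22 in 4716-11 against -0.06 in 4711-1 and -0.37 in 4711-18. Nup160 had 0.12 in 4716-11 against -0.18 in 4711-18, and Arhgap1, a regulator of small GTPases, 0.12 in 4716-11 against -0.06 in 4711-1. The sgRNAs of a line share its cells, so these are differences between lines with 1 culture per sgRNA and state.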

How the results depend on the processing

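The number of genes lower in all 12 comparisons moved from 390 to 119 with median-of-ratios rescaling and to 13 with a margin of 10%, and the number higher in all 12 moved from 58 to 184 and to 0. Minimum mean levels of 1 and 10 TPM gave 432 and 340 lower genes and 61 and 57 higher genes. With a line left out, and so only 8 comparisons to pass, 714 to 1011 genes were lower and 161 to 199 higher throughout. The 21 and 15 genes called higher and lower with p53 restoration became 15 and 19 after rescaling, all 15 lower calls and 15 of the 21 higher calls being kept, and 22 and 15 with the replicate block, where all 21 and 15 were kept. With a line left out they were 17 to 27 higher and 13 to 15 lower. Without 4711-18 (replicate 2), Mcm10 was at -0.77 and no longer called. Of 850 values of the 85 named genes under the alternatives, 840 kept their direction and side of the threshold or were never called, 9 became called and 1 was lost, and Irs2, Fkbp5, Ndc1 and Pnrc1 were those that became called under some setting. No alternative called a gene of the 390 between the sgRNAs (0 with the replicate block too), but at an unadjusted p under 0.05 the block gave 41 lower with sgPpia#3.2 and 0 higher, against 539 and 171 of the 9819. The held-out shares after rescaling and the block on rescaled values were added after the data were seen, and the cause of the changes was not tested. Absolute read depth is unknown, and with 3 lines and 1 sample each, small differences rest on few values.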
